A study of Mus musculus with 32 samples.

Results

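The genes described are 10 immediate early response genes (Fos, Fosb, Junb, Jun, Egr1, Egr3, Ier2, Atf3, Nr4a1 and Dusp1), taken by symbol from 22532 genes with a symbol of their own, in the gut of percc1-/- and wild-type mice. Total RNA was sequenced from 32 libraries, set out as 16 pairs in which a percc1-/- library had a wild-type counterpart matched for region and stage. There were 7 pairs of small intestine (top at P1, P5 and P15; bottom at P1, P5, P10 and P20), 5 of stomach (whole at P1 and P5; bottom at P10, P15 and P20), 3 of large bowel (P1 colon together with rectum, P5 colon, P5 rectum) and 1 of whole gut (E14.5). The percc1-/- mice lack 1512 bp of chromosome 17 (positions 25175032 to 25176543 on mm9) in every cell, with a loxP site left in its place, and the allele came from targeted W4/129S6 embryonic stem cells. Mice of both genotypes were on a mixed 129SvEv and C57BL/6 background kept by sibling breeding. The labels do not say which libraries come from the same animal or litter, so the 16 pairs may not be independent and the p-values may be too small. With differences averaged within stages, 2 genes were called over all regions in place of 116.

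Immediate early genes are transcribed within minutes of a stimulus, without new protein synthesis, because the factors that switch them on are already present and are activated by kinases. Growth factors, stretch, injury, nerve activity and stress all induce them, in gut epithelium, muscle, nerve and connective tissue alike, and their messages are short-lived. They include subunits of the AP-1 transcription factor (Fos, Fosb, Junb and Jun), zinc finger factors (Egr1 and Egr3), a stress-induced member of the ATF/CREB family (Atf3), an orphan nuclear receptor (Nr4a1), a small nuclear protein (Ier2) and a phosphatase that switches off MAP kinases (Dusp1).

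Many promoters of this class carry the cAMP response element, whose core is TGACG. The promoters of Fos, Nr4a1 and Dusp1 are shown because they hold the most copies of that core among the 7 members with an entry in the RefSeq promoter table (GRCm38.p6). Each is given as the 250 bases before the transcription start, on the gene's own strand, and capitals mark TGACG or, where the core lies on the opposite strand, CGTCA.
Fos, chr12:85473640-85473889, plus strand: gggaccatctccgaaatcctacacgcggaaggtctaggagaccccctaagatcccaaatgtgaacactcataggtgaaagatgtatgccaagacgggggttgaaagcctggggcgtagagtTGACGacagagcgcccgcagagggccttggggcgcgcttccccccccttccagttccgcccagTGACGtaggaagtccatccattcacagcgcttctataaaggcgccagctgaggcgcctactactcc
Nr4a1, chr15:101266596-101266845, plus strand: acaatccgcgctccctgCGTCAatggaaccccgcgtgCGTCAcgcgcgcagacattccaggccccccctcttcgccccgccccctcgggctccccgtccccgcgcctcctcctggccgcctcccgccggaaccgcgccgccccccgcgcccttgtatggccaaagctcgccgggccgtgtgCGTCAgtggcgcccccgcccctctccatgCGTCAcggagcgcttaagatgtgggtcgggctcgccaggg
Dusp1, chr17:26508473-26508722, minus strand: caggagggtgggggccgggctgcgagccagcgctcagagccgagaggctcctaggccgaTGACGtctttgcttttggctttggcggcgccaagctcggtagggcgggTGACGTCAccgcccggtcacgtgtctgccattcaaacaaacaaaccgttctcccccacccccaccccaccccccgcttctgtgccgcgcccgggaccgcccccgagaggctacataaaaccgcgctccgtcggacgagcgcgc
TGACG stood on either strand in 6 of the 7 promoters (300 bases each, to 50 after the start), against 20.8% of 32851 promoters of the same length; Jun was the member without it. The overlapping longer element TGACGTCA stood in Dusp1 only, against 1.79% of promoters. The EGR element GCGNGGGCG stood in Fosb and Nr4a1 (5.55% of promoters) and TATAAA in Fos and Junb (13.6%). The AP-1 element TGANTCA (7.81%) and the CArG box (1.63%) were found in 0 of the 7. These matches describe the letters of the window and were not tested as sites.

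FPKM corrects a fragment number for transcript length, which is meant to let levels of different genes be set side by side. All FPKM values below were rescaled between libraries by a median ratio (factors 0.864 to 1.38). The files give no counts and the depth is unknown, but each value has the authors' lower and upper bounds, whose half-width had a median of 8.17% of the value for Jun, 11.6% for Fos and 81.6% for Egr3. The libraries were unlike in make-up. They held 55408 to 248150 records each, and records with a gene symbol made up 16.8% to 60.2% of the summed FPKM. The part of this in the results was not tested. Very abundant transcripts lay in a narrow band in the deposited values (Actb 37.5 to 73.3 FPKM). The highest value of any record in a library lay between 62.5 and 214 FPKM. Whether the scale is even between low and high genes was not tested, so the order of genes by level holds on this scale only. The part of this narrow band in the results was not tested. As a check of the tissue labels, the gastric proton pump gene Atp4a lay between 21.4 and 76.8 FPKM in the 10 stomach libraries, but also reached 30.3 FPKM in small intestine. In 8 of the 16 pairs the median of a marker list of another organ differed between the genotypes by over 1 log2 unit. The organ lists were stomach, pancreas, liver, enterocyte and skeletal muscle. Fits without those pairs were run over all regions and in small intestine only, and are given where a direction turned. Leaving those pairs out took the number of genes called over all regions from 116 to 3, and no member was called. The Fos, Egr1 and Dusp1 differences under that setting lie within the ranges given below for the alternative settings.

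Over the 30 postnatal libraries Jun had the highest mean level, 13.6 FPKM, followed by Junb at 11.9, Fos at 10.03, Dusp1 at 9.87 and Ier2 at 9.65. Egr1 averaged 5.27 FPKM, Atf3 4.57 and Nr4a1 3.69, while Egr3 (0.588 FPKM) and Fosb (0.377 FPKM) were low. The neighbours Fos, Dusp1 and Ier2 lay within the spread between libraries, since their standard deviations were 4.89, 3.20 and 1.35 FPKM. Fosb and Egr3 fell under the mean of 1 FPKM needed for a test over all pairs, so 8 of the 10 members were tested there. In the whole gut at E14.5 Fos was at 0.794 FPKM in the percc1-/- library and 1.02 FPKM in the wild-type library, below every postnatal library. Jun was at 8.07 FPKM in the percc1-/- embryo gut and 7.62 FPKM in the wild-type gut, which is closer to its postnatal range.

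**Figure D1:**
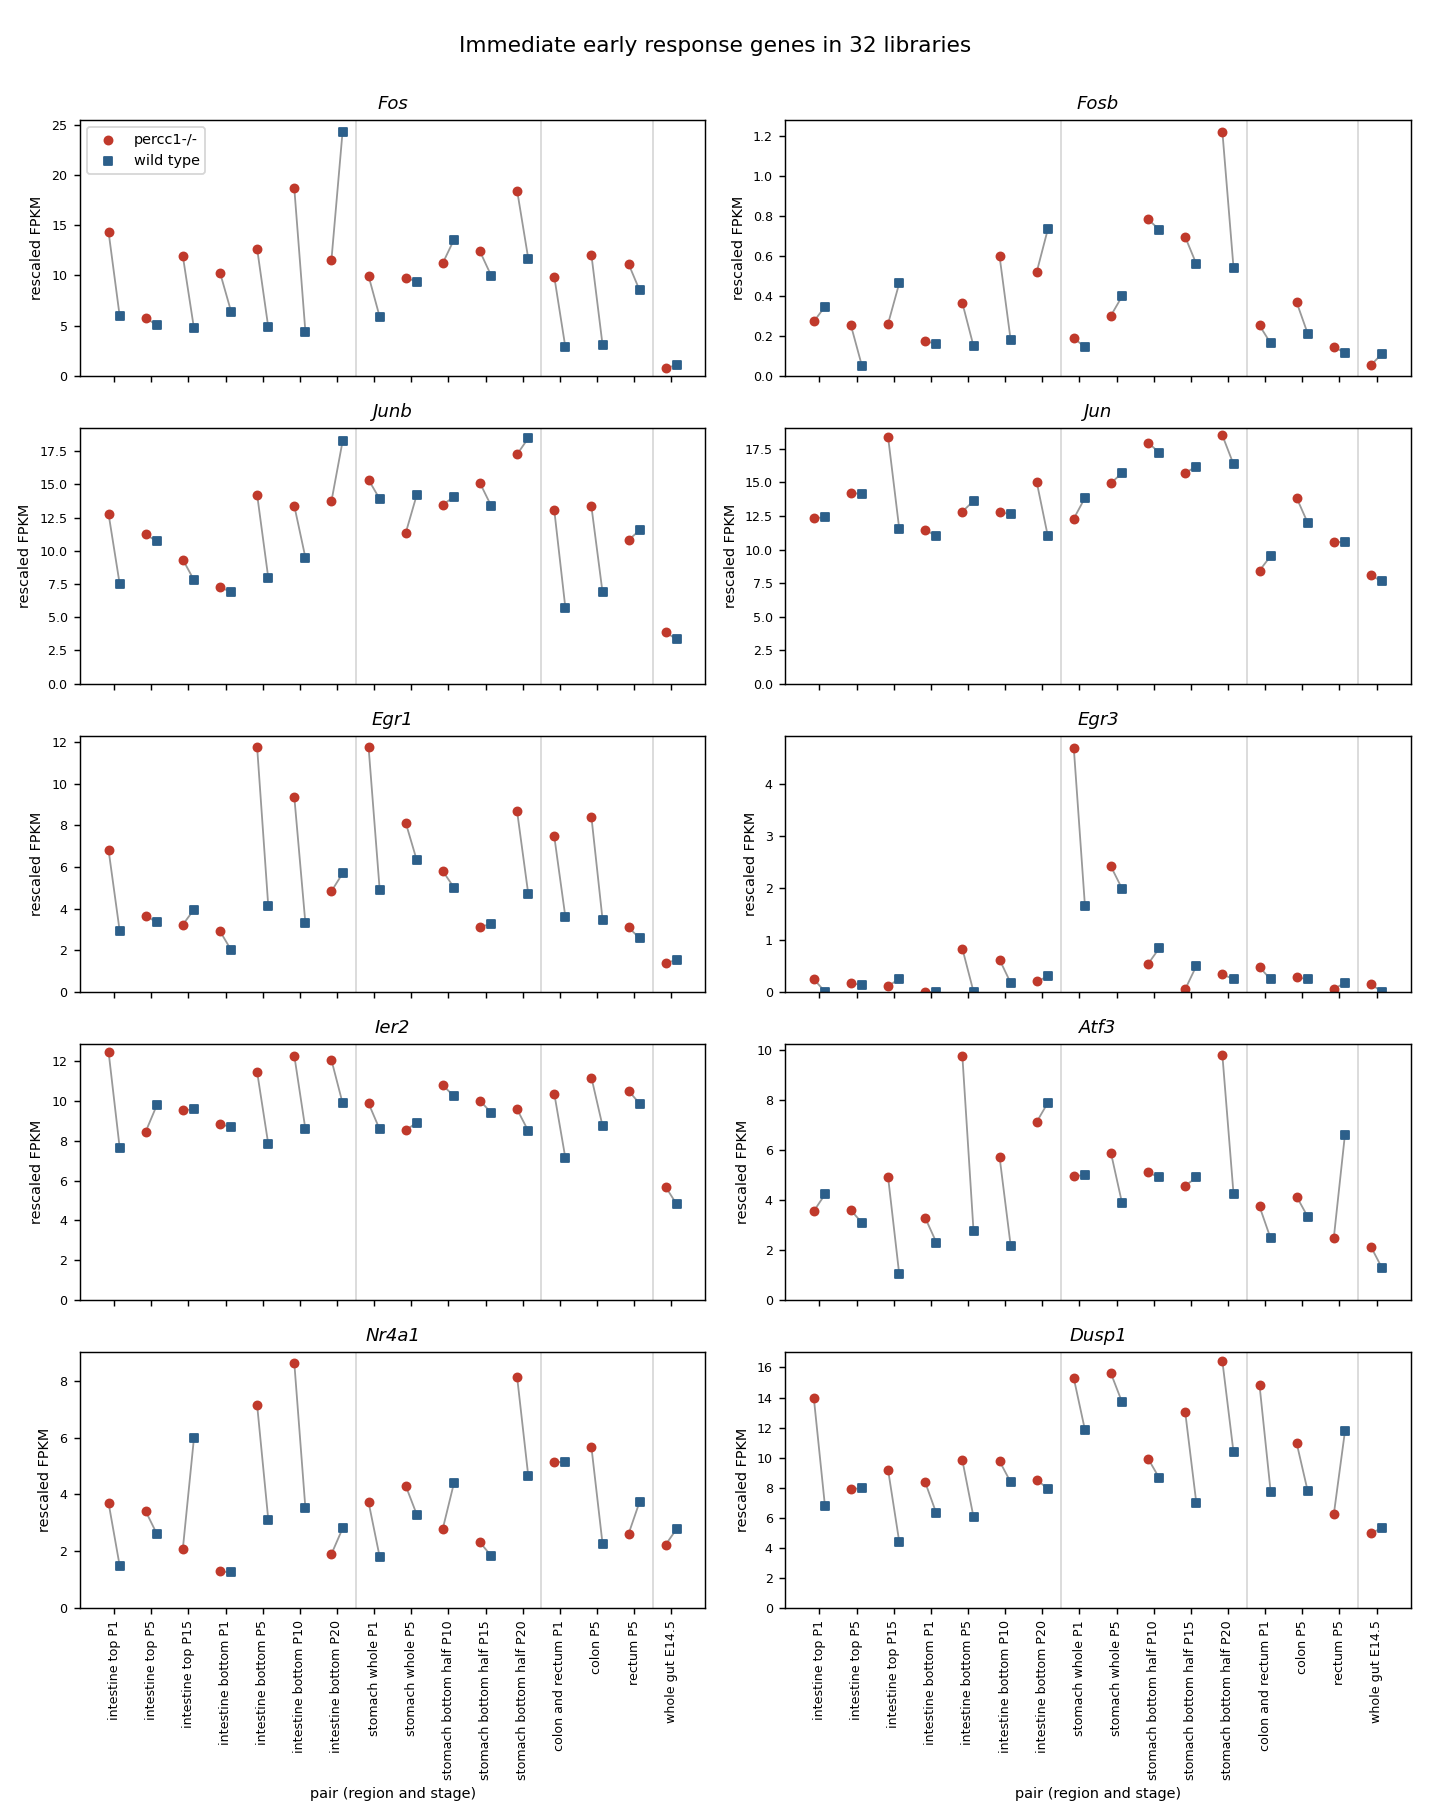
Rescaled FPKM (vertical axes, from 0) of the 10 genes in each of 16 pairs (horizontal axis), with percc1-/- as red circles left of wild type as blue squares, joined within a pair, and vertical lines between small intestine, stomach, large bowel and whole gut. Fos was higher in percc1-/- in 13 of 16 pairs, with the reverse most marked in bottom intestine at P20.

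The first comparison asks whether these genes differ between percc1-/- and wild-type gut over all regions. All 8 tested members had a positive fitted difference, led by Fos and Egr1, but 0 of 8 passed the test (limma, Benjamini-Hochberg adjusted p under 0.05), against 0.887% of the 13084 genes tested. At an unadjusted p under 0.05 there were 6 of 8 members, against 13.2% of all genes. The median difference of the members was 0.29 on the log2(FPKM + 1) scale, against -0.001 for all genes, of which 49.6% were positive. The members were chosen with these results known and move together, so that the counts describe them and are no test.

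Fos, the partner of Jun proteins in AP-1, ranged from 5.76 to 18.7 FPKM in percc1-/- small intestine, with a median of 11.9, and from 4.36 to 24.3 FPKM in wild-type small intestine, with a median of 5.05. In percc1-/- stomach Fos stood at 9.96, 9.77, 11.2, 12.4 and 18.5 FPKM (P1, P5, P10, P15, P20), against 5.87, 9.38, 13.6, 9.997 and 11.7 FPKM in wild-type stomach. In percc1-/- large bowel it stood at 9.88, 12.1 and 11.2 FPKM (colon with rectum P1, colon P5, rectum P5), against 2.82, 3.07 and 8.50 FPKM in wild-type large bowel. The 3 percc1-/- large bowel libraries all lay above the wild-type ones, and the genotypes overlapped in the larger groups of small intestine and stomach. The share of all genes separated in this way was not counted, so nothing particular to Fos is read from it. The fitted difference over all regions was 0.62 ± 0.18 (SE, 16 pairs; limma adjusted p = 0.113). The wild-type bottom intestine at P20 was the highest Fos value of the series. That pair was the most negative of the 3 in which Fos was lower in percc1-/-. Without it, the difference was 0.73 with a limma adjusted p of 0.0351. Over all 16 ways of leaving out a pair it ran from 0.54 (without bottom intestine at P10) to 0.73, with adjusted p from 0.0351 to 0.197, and with differences averaged within stages it was 0.48 (adjusted p = 0.687). Over 12 alternative settings the Fos difference ran from 0.42 to 0.74 and passed only without the P20 pairs.

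Egr1, a zinc finger factor induced by growth factors and injury, ranged from 2.91 to 11.8 FPKM in percc1-/- small intestine (median 4.83) and from 2.01 to 5.69 FPKM in wild-type small intestine (median 3.34). In percc1-/- stomach it stood at 11.8, 8.14, 5.80, 3.13 and 8.67 FPKM from P1 to P20, against 4.89, 6.31, 5.01, 3.25 and 4.70 FPKM in wild-type stomach. In percc1-/- large bowel it stood at 7.47, 8.41 and 3.10 FPKM, against 3.59, 3.47 and 2.57 FPKM in wild-type large bowel. Egr1 was higher in percc1-/- in 12 of 16 pairs, and no wild-type library exceeded 6.31 FPKM, although the ranges overlapped. The fitted difference was 0.50 ± 0.13 (SE, 16 pairs; limma adjusted p = 0.0763). It passed without the bottom intestine pair at P20 (0.55, adjusted p = 0.0474) and without the whole gut pair (0.54, adjusted p = 0.0492), but over all 16 ways of leaving out a pair the adjusted p reached 0.141 and the difference was as low as 0.45 (without bottom intestine at P5). With differences averaged within stages it was 0.37 (adjusted p = 0.709). Over 12 alternative settings the Egr1 difference ran from 0.32 to 0.58, with limma adjusted p from 0.0492 to 0.932.

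Dusp1, which removes the activating phosphates from MAP kinases, was higher in percc1-/- in 13 of 16 pairs. It ranged from 7.89 to 13.97 FPKM in percc1-/- small intestine (median 9.18) and from 4.40 to 8.37 FPKM in wild-type small intestine (median 6.78). In percc1-/- stomach it stood at 15.3, 15.6, 9.93, 13.01 and 16.4 FPKM from P1 to P20, against 11.8, 13.7, 8.64, 6.95 and 10.4 FPKM in wild-type stomach, higher in 5 of 5 pairs. In percc1-/- large bowel it stood at 14.8, 10.96 and 6.22 FPKM, against 7.72, 7.75 and 11.7 FPKM in wild-type large bowel, where the rectum pair ran the other way. The fitted difference over all regions was 0.35 ± 0.11 (SE, 16 pairs; limma adjusted p = 0.126), and without the rectum pair, its most negative, it was 0.43 with an adjusted p of 0.0246. Over all 16 ways of leaving out a pair it was as low as 0.31 (without top intestine at P1), with adjusted p up to 0.227, and with differences averaged within stages it was 0.34 (adjusted p = 0.687). Over 12 alternative settings the Dusp1 difference ran from 0.26 to 0.45, with limma adjusted p from 0.0513 to 0.988. Dusp1 lies on the chromosome of the deleted interval (positions 26642535 to 26645464 of chromosome 17 on mm9, minus strand), 1.47 Mb away. Alleles of the stem cell strain that stay linked to the deletion cannot be told apart from the deletion in this cross.

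Junb, the AP-1 subunit that often restrains Jun, had a median of 12.8 FPKM in percc1-/- small intestine (7.24 to 14.2) and 7.96 FPKM in wild-type small intestine (6.91 to 18.2). Its fitted difference over all regions was 0.23 ± 0.10 (SE, 16 pairs; limma adjusted p = 0.307). The large bowel pairs at P1 and in the colon at P5 differed most, with 13.1 and 13.3 FPKM in percc1-/- against 5.68 and 6.87 FPKM in wild type. Ier2, a small nuclear protein, showed a small difference of 0.20 ± 0.06 (SE; limma adjusted p = 0.117), higher in percc1-/- in 13 of 16 pairs. It averaged 10.7 ± 1.73 FPKM in percc1-/- small intestine and 8.87 ± 0.926 FPKM in wild-type small intestine (SD, n = 7 each). Junb and Ier2 both lie on chromosome 8 on mm9 (87500811 to 87502617 and 87185230 to 87186751, both on the minus strand).

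Atf3, a repressor and activator induced by cell stress, spread widely between pairs, with differences from -1.13 in rectum to 1.55 in top intestine at P15. Its highest percc1-/- values were 9.79 FPKM in stomach at P20 and 9.74 FPKM in bottom intestine at P5, where the wild-type libraries had 4.24 and 2.75 FPKM. The fitted difference was 0.37 ± 0.16 (SE, 16 pairs; limma adjusted p = 0.317). Nr4a1, an orphan receptor also known as Nur77, reached 8.65 FPKM in percc1-/- bottom intestine at P10, against 3.51 FPKM in wild type. It stood at 2.08 FPKM in percc1-/- top intestine at P15, against 6.00 FPKM in wild type. Its difference of 0.23 ± 0.15 (SE; limma adjusted p = 0.570) turned to -0.05 when the 8 pairs with markers of another organ were left out. Jun itself was nearly level between genotypes, at 13.6 ± 3.17 FPKM in percc1-/- and 12.8 ± 2.67 FPKM in wild type (SD, n = 16 each), with a difference of 0.07 ± 0.05 (SE; limma adjusted p = 0.634).

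The low members had wide bounds. Egr3 was listed at 0 in 5 libraries, and was higher in percc1-/- in 10 pairs and lower in 5. Fosb was higher in percc1-/- in 11 of 16 pairs, with a highest value of 1.22 FPKM in percc1-/- stomach at P20, against 0.541 FPKM in wild type. Without the filter on low values, neither passed over all regions (Egr3 0.15 ± 0.10, adjusted p = 0.578; Fosb 0.09 ± 0.05, adjusted p = 0.528; SE, limma).

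The difference was not spread evenly over pairs. All 8 tested members were higher in percc1-/- in 3 pairs (bottom intestine at P1 and P10, colon at P5), at least 6 of 8 were higher in 9 pairs, and the median of the 8 was positive in 13 of 16 pairs. The largest medians were 0.88 in bottom intestine at P5, 0.81 in top intestine at P1 and 0.78 in bottom intestine at P10. In bottom intestine at P20 and in rectum at P5, 3 of 8 members were higher, with medians of -0.16 and -0.05, and in whole gut at E14.5 it was 4 of 8. The standard deviation of the 16 differences was 0.79 for Fos, which 5.22% of tested genes exceeded, and 0.21 for Jun, which 81.7% exceeded. Across the 16 differences, the Pearson correlation of a member with the mean of the other 7 was 0.79 for Fos, 0.75 for Egr1 and 0.74 for Junb, but -0.24 for Jun; the points share libraries, and this is a description.

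**Figure D2:**
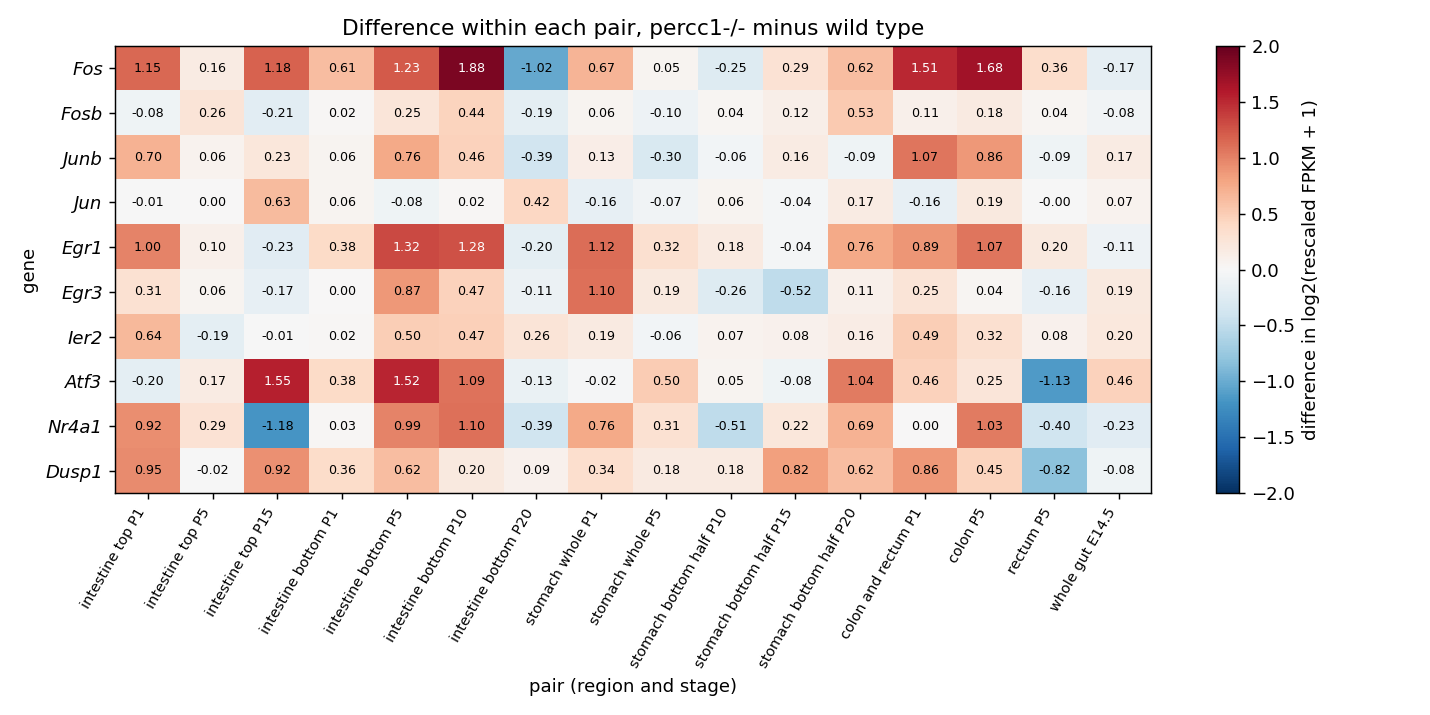
Difference in log2(rescaled FPKM + 1), percc1-/- minus wild type, for each gene (rows) and pair (columns), with red for higher and blue for lower in percc1-/-. Fos ran from -1.02 in bottom intestine at P20 to 1.88 in bottom intestine at P10, while Jun stayed between -0.16 and 0.63.

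Within single regions 0 members passed. In small intestine, 8 of 8 tested members had a positive difference and 0 were called, against 0.117% of genes, while 4 of 8 had an unadjusted p under 0.05, against 10.1% of genes. The differences there were 0.74 ± 0.29 for Fos, 0.62 ± 0.24 for Atf3, 0.52 ± 0.22 for Egr1 and 0.45 ± 0.14 for Dusp1 (SE, 7 pairs; limma adjusted p from 0.295 for Dusp1 to 0.477 for Egr1). In stomach, 7 of 9 tested members were positive and 0 were called, against 0.0226% of genes, with 2 of 9 at an unadjusted p under 0.05, against 4.6% of genes. Those were Egr1 at 0.47 ± 0.18 and Dusp1 at 0.43 ± 0.12 (SE, 5 pairs; limma adjusted p = 0.988 and 0.965). Egr3 is among the 7 positive members of stomach, at 0.13 ± 0.24 (SE). It reached the mean needed for a test only through the whole stomach at P1 and P5, and turned to -0.10 with a pseudocount of 0.1. Of all genes, 49.1% were positive in stomach, 49% in small intestine and 48.2% in large bowel. In large bowel, 7 of 8 tested members were positive and 0 were called, against 0.015% of genes, with 2 of 8 at an unadjusted p under 0.05, against 9.96% of genes. Fos differed by 1.18 ± 0.28 and Egr1 by 0.72 ± 0.21 there (SE, 3 pairs; limma adjusted p = 0.404 and 0.439), and both were higher in percc1-/- in 3 of 3 pairs.

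**Figure D3:**
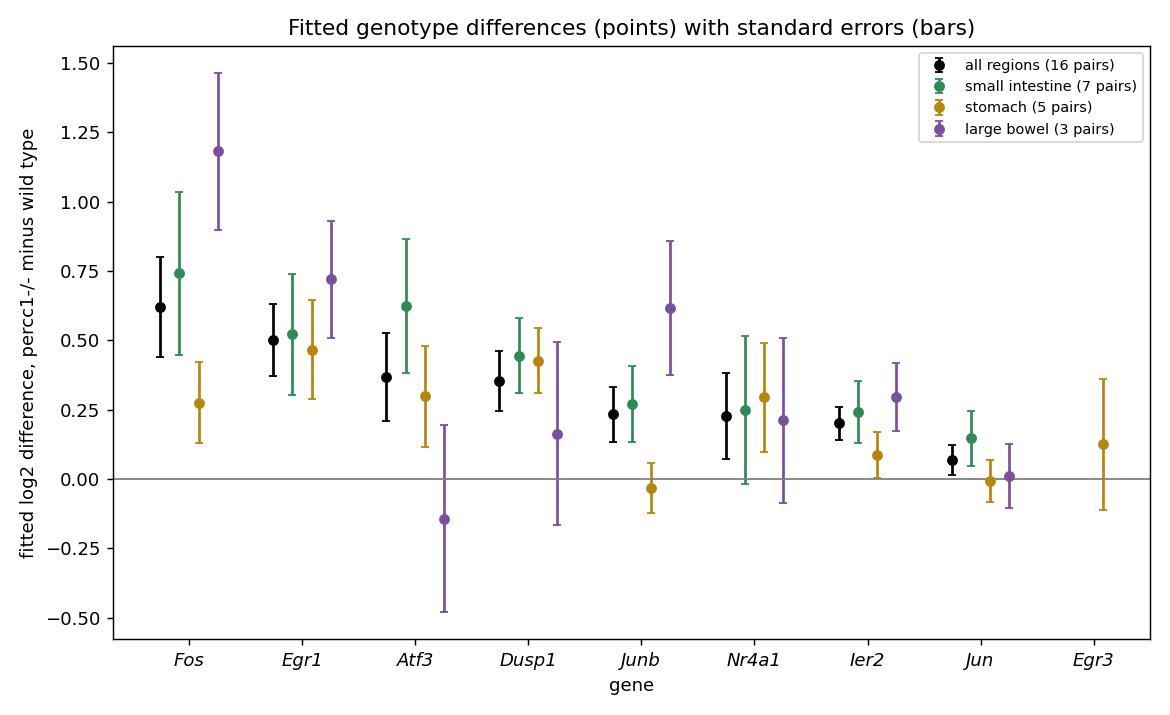
Fitted difference in log2(rescaled FPKM + 1), percc1-/- minus wild type (vertical axis), with standard errors as bars, for each tested gene (horizontal axis) over all 16 pairs and within small intestine, stomach and large bowel. Fos had 1.18 in large bowel and 0.28 in stomach, with standard errors of 0.28 and 0.15, and Egr3 was tested in stomach alone.

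The size of the genotype difference was compared between stomach and small intestine and between ages, and that of large bowel with another region was not tested. For stomach minus small intestine, 0 of 8 members were called, against 0.0153% of genes, and 0 of 8 had an unadjusted p under 0.05, against 4.69% of genes. Fos had the most negative estimate, -0.47 ± 0.40 (SE; limma adjusted p = 0.9996), which was -0.76 without bottom intestine at P20 and -0.28 without bottom intestine at P10. For P10 to P20 minus P1 and P5, 0 of 8 members were called, against 0.046% of genes, and 1 of 8, Jun, had an unadjusted p under 0.05, against 8.14% of genes. Jun had an estimate of 0.23 ± 0.10 (SE, 15 pairs; limma adjusted p = 0.591). Egr1 had -0.42 ± 0.26 and Nr4a1 -0.45 ± 0.32 in that comparison (SE; limma adjusted p = 0.687 and 0.724).

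Levels were also compared between organs. With genotypes together, Dusp1, Junb and Jun were higher in stomach than in small intestine, while Ier2 and Nr4a1 were near level. Dusp1 averaged 12.2 ± 3.17 FPKM in stomach and 8.23 ± 2.23 FPKM in small intestine (SD, n = 10 and 14), a difference of 0.54 ± 0.11 (SE; limma adjusted p = 0.0002). Junb averaged 14.7 ± 2.03 FPKM in stomach and 10.7 ± 3.35 FPKM in small intestine, a difference of 0.42 ± 0.11 (limma adjusted p = 0.0030). Jun averaged 15.9 ± 1.86 FPKM in stomach and 13.1 ± 1.95 FPKM in small intestine, a difference of 0.24 ± 0.07 (limma adjusted p = 0.0059). These 3 of 8 members called stand against 48.3% of all genes, a share that the members do not exceed, and nothing particular to them is read from it. Ranges of the organs overlapped for each of the 3.

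Egr3, which acts in lymphocytes and in muscle spindles, was the member with the most regional pattern. It stood at 4.68 and 2.41 FPKM in percc1-/- whole stomach at P1 and P5, against 1.65 and 1.98 FPKM in wild-type whole stomach, and did not exceed 0.836 FPKM in any other library but those 4. The bottom of the stomach at P10 to P20 averaged 0.415 FPKM, but the dissected part changes with age there, so that age and part cannot be told apart. Without the filter on low values, its difference of stomach minus small intestine was 0.84 ± 0.21 (SE; limma adjusted p = 0.0028). Egr3 was singled out from these same values, so that this p-value is no test of the pattern. With the filter, 48.3% of all genes were called in this comparison, and the share without it is not given here.

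In large bowel minus small intestine at P1 and P5, 1 of 8 members was called, against 38.1% of genes. Jun averaged 10.8 ± 1.90 FPKM in large bowel and 12.7 ± 1.19 FPKM in small intestine of those stages (SD, n = 6 and 8), and fell by 0.27 ± 0.07 on the log2 scale (SE; limma adjusted p = 0.0111). The call was lost without the P1 colon with rectum pair (adjusted p = 0.141) or the rectum pair (adjusted p = 0.0561). With age in small intestine (P10 to P20 minus P1 and P5), 0 of 8 members were called, against 5.93% of genes, and 0 of 8 had an unadjusted p under 0.05, against 22.8% of genes. Fos averaged 12.6 ± 7.84 FPKM at P10 to P20 and 8.16 ± 3.74 FPKM at P1 and P5 (SD, n = 6 and 8), a difference of 0.38 ± 0.30 (SE; limma adjusted p = 0.495), which was 0.13 without bottom intestine at P20.

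**Figure D4:**
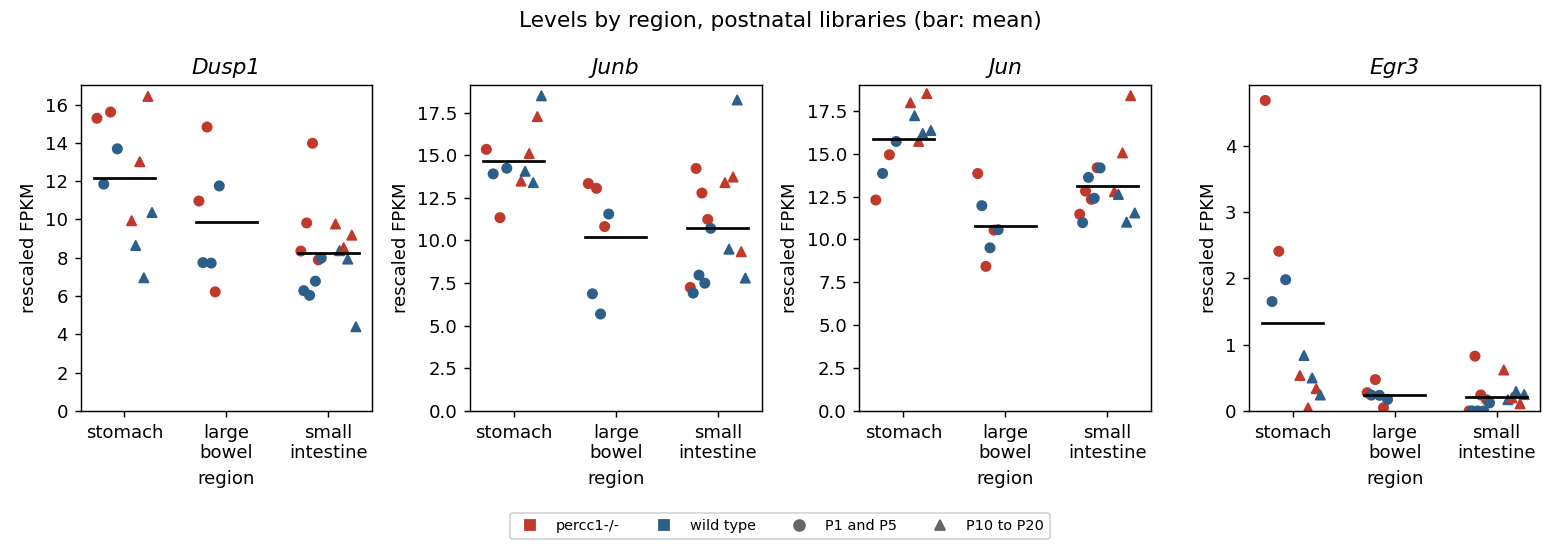
Rescaled FPKM (vertical axes, from 0) of Dusp1, Junb, Jun and Egr3 in postnatal libraries of stomach, large bowel and small intestine, with percc1-/- in red, wild type in blue, circles for P1 and P5, triangles for P10 to P20 and a bar at the mean. Dusp1 averaged 12.2 FPKM in stomach and 8.23 FPKM in small intestine, and the 4 whole-stomach libraries hold the highest Egr3 values, 1.65 to 4.68 FPKM.

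Other genes of the pathway were taken from lists. Of other AP-1 and bZIP genes, 8 of 8 tested were positive over all regions with 0 called, and a median of 0.12. They included Fosl2 (0.33 ± 0.09, adjusted p = 0.103) and Maff (0.31 ± 0.09, adjusted p = 0.116; SE, limma), while Fosl1 was listed at 0 in every library. Of other EGR, NR4A and KLF genes, 7 of 7 were positive with 0 called, and Klf6 was at 0.18 ± 0.06 (SE; limma adjusted p = 0.170). Of the other feedback inhibitors, 10 of 15 were positive with 0 called. Zfp36, which speeds the decay of short-lived messages, had 15.1 ± 4.86 FPKM in percc1-/- and 12.4 ± 4.39 FPKM in wild type (SD, n = 16 each; limma adjusted p = 0.0737).

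Of 16 further early response genes tested, 13 were positive, against 49.6% of all genes, and 1 was called, against 0.887% of all genes. Gadd45g, a growth arrest and stress sensor, rose by 0.50 ± 0.11 (SE, 16 pairs; limma adjusted p = 0.0308), with 6.05 ± 1.91 FPKM in percc1-/- and 3.98 ± 1.53 FPKM in wild type (SD, n = 16 each), higher in 14 of 16 pairs. Calls of genes outside the members, here and below, were not followed under the other settings. With differences averaged within stages, 2 genes in all were called. Hbegf, a growth factor of the EGF family, was at 0.40 ± 0.10 (adjusted p = 0.0709) and Plk3 at 0.55 ± 0.14 (adjusted p = 0.0854; SE, limma). Of 19 upstream pathway genes (MAP kinases and the factors they activate), 11 were positive and 0 called, with a median of 0.02. Elk1, a factor that MAP kinases activate, was at -0.20 ± 0.10 (SE; limma adjusted p = 0.435).

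Other lists are given as counts beside the 0.887% of all genes called and the 49.6% positive over all regions; no list was tested as a group. Of 13 glucocorticoid-induced genes, a class to which Dusp1 is also known to belong, 11 were positive and 2 were called over all regions, Fkbp5 (1.15 ± 0.18, adjusted p = 0.0031) and Pdk4 (0.87 ± 0.17, adjusted p = 0.0170; SE, limma). Of 6 tested neutrophil markers, 6 were positive and S100a8 and S100a9 were called (1.67 ± 0.27 and 1.36 ± 0.29; SE; limma adjusted p = 0.0044 and 0.0308), and the summed level of the list ran from 5.32 to 110.2 FPKM in percc1-/- and from 4.81 to 31.1 FPKM in wild type. Of 8 fibroblast markers, 6 were negative, and Lum fell by 0.34 ± 0.07 on the log2 scale (SE; limma adjusted p = 0.0293), with a summed level of the list from 114.9 to 233.6 FPKM in percc1-/- and from 150.5 to 259.5 FPKM in wild type. Heat shock genes had a median of 0.03, with 7 of 9 positive and 0 called. Of the remaining marker lists, each with 0 called, enteric neuron markers were positive in 9 of 9 (median 0.15), epithelium markers in 7 of 7 (0.04), smooth muscle markers in 7 of 10 (0.03), mesothelium markers in 3 of 5 (0.03), leukocyte markers in 2 of 4 (0.01) and erythroid markers in 2 of 3 (0.06). Proliferation genes were negative in 10 of 10 (median -0.13) and endothelium markers in 6 of 6 (-0.12). Markers of single organs were positive in 9 of 11 for stomach (median 0.16), 9 of 10 for liver (0.22), 5 of 9 for enterocytes (0.06), 1 of 10 for pancreas (-0.44) and 2 of 5 for skeletal muscle (-0.15). In tissue, fewer cells of a type and less RNA per cell cannot be told apart, and the part of these groups in the member differences was not tested.

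The genes with levels most like the mean of the 8 tested members over 32 libraries were Syngr2 (Pearson correlation 0.82), Trabd (0.81), Fam3b (0.81), Areg (0.80) and Smpd3 (0.79). Over the 16 differences between genotypes they were Ptgs2 (0.86), Ftsj3 (0.84), Eef1e1 (0.83), Il1b (0.83) and Lrp8 (0.82). Both lists are the top of many genes and share libraries, and no p-value is attached.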

How the data were processed

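RNA was measured in 32 libraries, per the labels' protocols from snap-frozen tissue emptied of its contents, extracted with TRIzol and made into stranded libraries with ribosomal RNA removed. The authors deposited a Cufflinks gene table per library, with FPKM and bounds. TopHat2 2.0.13, SAMtools 0.1.18, Cufflinks 2.2.1 and mm9 are listed by the submitters' processing notes, which state no annotation. Records of a symbol were summed, and failed records or records that merge symbols left a gene missing. Unnamed records lying over a member were left out of its FPKM. There were 59 in 15 libraries for Atf3 (up to 3.50 FPKM as deposited) and 9 in 6 libraries for Fos (up to 6.95 FPKM). Nr4a1 had 9 in 4 libraries, Dusp1 4 in 4 and Egr1 2 in 2. With them added over all regions, no member turned in direction or was called, and single regions were not run. FPKM was rescaled by the median ratio and tested with limma 3.58.1 in R 4.3.3 on log2(FPKM + 1), which understates changes of low genes, with a trended and robust prior, the pair as a block, a minimum mean of 1 FPKM and Benjamini-Hochberg adjustment over all genes (called under 0.05, two-sided). Age and region fits had genotype with part or stage as covariates. Pairs follow the labelled region and stage, with 1 library of each genotype in each. Depth is unknown. The fits were also run on simulated data, with the result not given here. The planted differences were larger than the main fitted differences of the members, and the residuals were independent. That run therefore cannot show how well small differences are found, or what shared animals would do. Alternatives were other pseudocounts (0.1 and 5), filters, scalings, priors and pairs left out. All 10 members are named, and of other lists up to 4 genes with the smallest p. Members and lists were chosen with earlier results of these data known, and values are printed rescaled, not as deposited, a choice made after the values were seen. mm9 positions come from GENCODE vM1, promoters from RefSeq.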

Additional observations from a re-analysis of the deposited data

Results flagged for a closer look

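In 40 combinations of a member with a genotype in small intestine or stomach, 5 had a library far from the others of its group. Large bowel and whole gut had too few libraries for the rule. It flags about 1 in 20 where libraries are alike and independent. Here the groups mix stages and parts and the members move together, so that rate is no measure of an excess. Atf3 in percc1-/- stomach stood at 9.79 FPKM at P20, and Dusp1 in percc1-/- small intestine at 13.97 FPKM in the top part at P1. Fos and Junb in wild-type small intestine stood at 24.3 and 18.2 FPKM in the bottom part at P20. Junb in wild-type stomach stood at 18.5 FPKM at P20. On the deposited scale 5 were far from their group as well, and 3 of them were the same, namely the Fos and Junb values in wild type. Of the 5, 4 are at P20, the oldest stage, which has 1 pair in small intestine and 1 in stomach. In 30 contrasts between regions, 0 had all pairs of one region against all pairs of the other in direction.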

How the results depend on the processing

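Over all regions, 116 genes were called, and there were 22 with no replicate block (the pairing left out), 3 after dropping the 8 pairs in which markers of another organ differed, 2 with differences averaged within stages and 184 with postnatal pairs only; members called went to 1 without the P20 pairs (Fos, 0.74, adjusted p = 0.0408) and to 1 with postnatal pairs only. The settings without P20 pairs and with postnatal pairs only were chosen after seeing the data. In small intestine 15 genes were called, against 5 with a pseudocount of 0.1, 3 with no filter and 1 without the pairs with organ markers. In stomach it was 3, against 1 (pseudocount 0.1), 7 (no rescaling) and 1 (no replicate block). In large bowel it was 2, against 0 (pseudocount 0.1), 0 (no filter), 7 (no rescaling), 5 (no trend or robust prior) and 4 (no replicate block). For the genotype effect in stomach minus small intestine it was 2, against 4 with no filter, and for that between ages 6, against 3 and 3 (pseudocounts 0.1 and 5), 2 (no rescaling) and 0 (no replicate block). Members called in large bowel minus small intestine were 1, against 0 with upper quartile rescaling (Jun -0.19, adjusted p = 0.0538). Directions turned for Egr3 in stomach (-0.10, pseudocount 0.1), Dusp1 in the stomach minus small intestine effect (0.016, pseudocount 5), Ier2 in the age effect (0.066, no rescaling), Ier2 in stomach minus small intestine (0.030 with no rescaling, 0.0016 with upper quartile), Ier2 in large bowel minus small intestine (-0.0020, no rescaling), Junb there (0.067, upper quartile), and Nr4a1 without the pairs with organ markers (-0.048 over all regions, -0.11 in small intestine). The cause was not tested. Stomach was not fitted without those pairs because too few of its pairs remained. The other comparisons were not run without them.

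Leaving out each pair in turn gave 68 to 184 genes and 0 to 2 members over all regions (Fos and Egr1 without bottom intestine at P20; 1 member, Dusp1, without rectum and 1, Egr1, without whole gut), 2 to 19 genes in small intestine, 1 to 3 in stomach, 0 to 1 in large bowel, 0 to 5 for the age effect, 82 to 847 for age in small intestine and 2693 to 4856 for large bowel minus small intestine, where members called were 0 to 1 (lost without P1 colon with rectum, -0.21, or rectum, -0.22). Estimates that crossed zero were, in stomach, Junb (-0.080 to 0.036) and Jun (-0.052 to 0.030); in large bowel, Jun (-0.080 to 0.096), Atf3 (-0.44 to 0.35), Nr4a1 (-0.20 to 0.52) and Dusp1 (-0.18 to 0.66); for the stomach minus small intestine effect, Egr1 (-0.22 to 0.079), Nr4a1 (-0.19 to 0.25) and Dusp1 (-0.12 to 0.065); for the age effect, Ier2 (-0.11 to 0.0041); for age in small intestine, Egr1 (-0.22 to 0.39), Atf3 (-0.25 to 0.36) and Dusp1 (-0.14 to 0.18); for stomach minus small intestine, Nr4a1 (-0.14 to 0.23); and for large bowel minus small intestine, Fos (-0.32 to 0.23), Junb (-0.090 to 0.050), Egr1 (-0.27 to 0.33), Ier2 (-0.010 to 0.10), Atf3 (-0.22 to 0.054) and Nr4a1 (-0.13 to 0.64). Depth is unknown, and the wide bounds of Fosb and Egr3 limit what can be said of them.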
